A study of Mus musculus with 10 samples.

Results

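The genes described here are Hspa1b, Hspa1a and Hspa1l, the 3 members of the Hspa1 locus on mouse chromosome 17, and they were taken as every probe set that the array's annotation assigns to them. They are 3 of the 18193 genes with a probe set of their own, and gave 5 of the 45101 probe sets on the Affymetrix mouse array: 3 for Hspa1b (1427126_at, 1427127_x_at and 1452318_a_at), 1 for Hspa1a (1452388_at) and 1 for Hspa1l (1419625_at). The arrays measured mouse embryonic fibroblasts (MEF), cells grown out of mouse embryos, of a pair of lines. The line whose labels read hsp70 knockout or (-/-) is termed KO-labelled, and the line whose labels read rescue or (+/+) is termed rescue-labelled. KO-labelled cells were preshocked (3 arrays) or left unheated (3 arrays), and rescue-labelled cells were preshocked (2 arrays) or left unheated (2 arrays). After 20 hours in multi-well plates, cells to be preshocked spent 30 minutes in a 43 °C water bath, and their RNA was taken after 3 more hours in the incubator. Lysates of 144 wells were pooled for each array. All groups were grown in the same medium with serum and the antimicrobial Normocin, and the labels name no other agent.

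Each line is a single line, so a difference between the lines cannot be told apart from other differences between them. KO-labelled arrays carry numbers from 5 to 14 and rescue-labelled arrays numbers from 31 to 44, which the labels do not explain. Line and array number therefore cannot be told apart either. The labels give neither which Hsp70 gene or which stretch of it the (-/-) line lacks, nor what the rescue line carries. Nor do they say whether arrays of a group came from different cultures, and p-values then measure only the spread between these samples, which may be technical. The deposited values are intensities on a linear scale, and the 10 arrays limit the precision. Array medians lay between 54.9 and 107 in KO-labelled arrays and between 50.7 and 53.3 in rescue-labelled arrays. Of the 10 fibroblast markers looked up, 6 (Vim, Fn1, Col1a2, Col1a1, Col3a1 and Pdgfrb) had a median percentile over 80 within the arrays. That held for 0 of 4 for each of the epithelial, the macrophage and leukocyte, and the endothelial markers. The fibroblast markers Thy1, Pdgfra, Dcn and Lum lay below percentile 80 in every array, as the markers of the other cell types did. Summed over the 4 epithelial markers, intensity ran between 168 and 747 in KO-labelled preshocked arrays, 186 and 804 in KO-labelled unheated arrays, 184 and 192 in rescue-labelled preshocked arrays, and 99.6 and 163 in rescue-labelled unheated arrays. Their part in the differences between lines was not tested.

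Hsp70 proteins are ATP-driven chaperones that bind exposed hydrophobic stretches of other proteins and let them refold. In the mouse, Hspa1a and Hspa1b encode almost the same cytosolic protein, the major heat-inducible Hsp70, and both are intronless genes that are switched on by heat shock factor 1 (HSF1). HSF1 binds heat shock elements, runs of the letters GAA in alternating orientation, in their promoters. Hspa1l encodes a closely related Hsp70 that in the mouse is made mainly in developing sperm cells and is not known for induction by heat.

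In the RefSeq annotation of build GRCm38.p6, Hspa1b lies at chr17:34956429-34959238 on the minus strand, Hspa1a at chr17:34969359-34972156 on the minus strand and Hspa1l at chr17:34972703-34979228 on the plus strand. Hspa1a and Hspa1l are read away from each other, with 547 bases between their start sites, and the start sites of Hspa1b and Hspa1a are 12918 bases apart. The 250 bases before each start site were compared because the heat shock elements of Hsp70 genes lie in their promoters. Capitals mark the match to GAANNTTC, an inward-facing pair of heat shock element units.
Hspa1b: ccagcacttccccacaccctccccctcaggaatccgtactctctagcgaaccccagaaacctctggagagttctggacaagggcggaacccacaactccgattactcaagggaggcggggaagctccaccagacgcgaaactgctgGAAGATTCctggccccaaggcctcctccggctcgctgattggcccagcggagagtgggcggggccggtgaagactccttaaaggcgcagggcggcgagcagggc
Hspa1a: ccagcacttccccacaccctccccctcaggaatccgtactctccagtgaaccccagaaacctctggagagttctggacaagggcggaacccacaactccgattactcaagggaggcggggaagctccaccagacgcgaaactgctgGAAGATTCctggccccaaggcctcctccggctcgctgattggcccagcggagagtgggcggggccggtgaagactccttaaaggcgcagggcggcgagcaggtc
Hspa1l: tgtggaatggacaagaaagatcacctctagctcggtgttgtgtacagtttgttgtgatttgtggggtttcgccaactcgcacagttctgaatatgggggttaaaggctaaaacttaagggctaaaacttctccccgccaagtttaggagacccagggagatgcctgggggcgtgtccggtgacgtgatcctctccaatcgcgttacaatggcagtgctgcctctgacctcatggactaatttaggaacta
The Hspa1b stretch is chr17:34959239-34959488 on the minus strand, the Hspa1a stretch chr17:34972157-34972406 on the minus strand, and the Hspa1l stretch chr17:34972453-34972702 on the plus strand.

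The Hspa1b and Hspa1a promoters are near-copies. Over windows of 300 bases, 250 before the start site and 50 after it, 296 positions (98.7%) were identical. The 4 substitutions were T44C, C47T, G249T and T276C, with the Hspa1b base first and positions counted from 1 at the 5′ end of the window. None fell in the GAANNTTC match. Single GAA units and units at other spacings were not searched, so the substitutions were not placed relative to those. Both promoters hold GAANNTTC at position -104 from the start site, as GAAGATTC. The Hspa1l window has none of it and shares 64 of 300 positions (21.3%) with Hspa1b when aligned without gaps.

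Motifs were searched on both strands of the 300-base windows. GAANNTTC reads the same on both strands and was found in 7.86% of all 32851 RefSeq promoter windows of the mouse. It was in 11 of the 28 windows (39.3%) of the heat shock genes tested further on. Those windows belong to 20 of the 25 genes of that list, some with several windows, and 10 of these genes hold GAANNTTC. TTCNNGAA, the outward-facing pair, was in none of the 3 Hspa1 windows and in 8.52% of all windows. CCAAT was found at position -67, on the opposite strand, in Hspa1b and Hspa1a, and at -57 in Hspa1l, and 37.4% of all windows hold it. GGGCGG was found at positions -170, -49 and -16 in Hspa1b and in Hspa1a and at position 39 in Hspa1l, and 35.7% of all windows hold it. TATAAA was in none of the 3 and in 13.6% of all windows. Of the 28 heat shock gene windows, 25% hold TTCNNGAA, 35.7% CCAAT, 82.1% GGGCGG and 3.57% TATAAA. None of these motif matches overlaps another within a window, and a match describes the letters, not binding.

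The signal of all 3 Hspa1b probe sets rose in preshocked cells of both lines, including the line labelled (-/-). Over these probe sets and both lines, intensity ran between 15502 and 43329 in preshocked arrays and between 63.2 and 675 in unheated arrays. Probe set 1427126_at had intensities of 16853, 22815 and 29562 in KO-labelled preshocked arrays (numbered 5, 11 and 13 in the labels), against 68.8, 106 and 63.2 in KO-labelled unheated arrays (6, 12 and 14). The lowest preshocked array lay far above the highest unheated array, with no overlap. In the rescue-labelled line the same probe set had 36889 and 29210.0 in preshocked arrays (31 and 43), against 196 and 262 in unheated arrays (32 and 44). The means were 23077 ± 6359 in KO-labelled preshocked arrays against 79.5 ± 23.5 in KO-labelled unheated arrays (SD, n = 3 each). In rescue-labelled cells they were 33049 ± 5430 in preshocked arrays against 229 ± 46.6 in unheated arrays (SD, n = 2 each).

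The other pair of Hspa1b probe sets separated preshocked from unheated arrays in the same way. Probe set 1427127_x_at had 15502, 23484 and 39355 in KO-labelled preshocked arrays, against 111, 161 and 127 in KO-labelled unheated arrays. In rescue-labelled arrays it had 43329 and 32057 after preshock, against 318 and 390.0 without heat. Probe set 1452318_a_at had 19912, 30652 and 31556 in KO-labelled preshocked arrays, against 212, 477 and 220.4 in KO-labelled unheated arrays. Rescue-labelled arrays had 37506 and 24677 after preshock, against 675 and 465 without heat. The suffix _x_at marks probe sets in which probes can match other sequences, and _a_at marks sets whose probes match several transcripts of a gene.

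**Figure D1:**
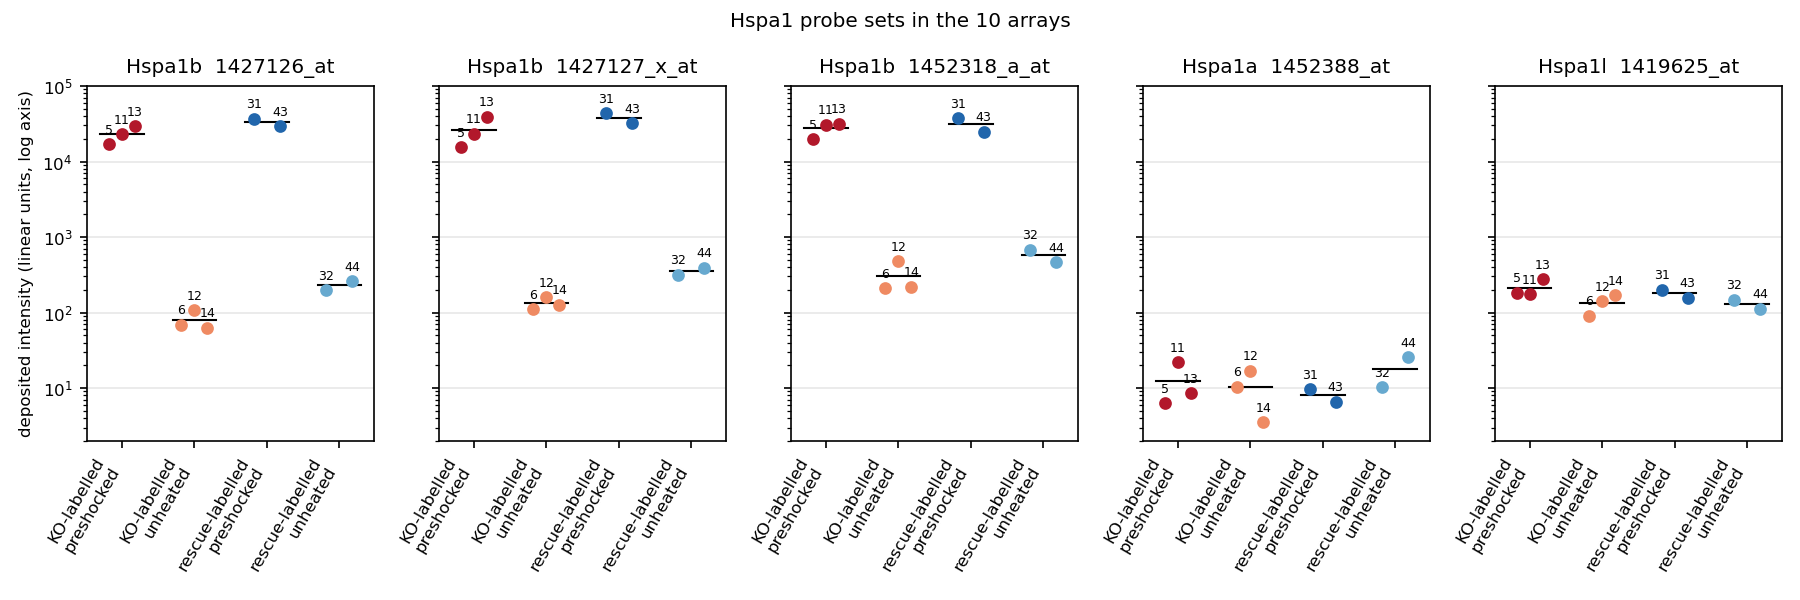
Deposited intensity (log axis) of each Hspa1 probe set in each of the 10 arrays, 1 panel per probe set and 1 column per group. Points are arrays with their number from the labels, black bars are group means. The 3 Hspa1b probe sets lie at 15502 or higher in every preshocked array and at 675 or lower in every unheated array. Hspa1a reaches at most 25.8 and Hspa1l at most 276.

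The fitted changes, from limma on quantile-normalized log2 intensities over 45037 probe sets, were among the highest on the array. In KO-labelled cells 1427126_at changed by 8.48 ± 0.32 on the log2 scale (standard error), a 357-fold rise, with an adjusted p of 4.52e-04 and first rank among all probe sets. Probe set 1427127_x_at changed by 7.78 ± 0.33 (adjusted p = 5.23e-04, second rank), and 1452318_a_at by 6.81 ± 0.41 (adjusted p = 0.00288, rank 4). No background measure per probe set was used here, and the unheated level of 1427126_at lay between percentiles 40.6 and 56.7 in KO-labelled arrays, so its fold and the difference of responses rest on a level that may not be above background. A call here means an adjusted p under 0.05, with Benjamini-Hochberg adjustment over all probe sets. In KO-labelled cells 3 of the 5 Hspa1 probe sets were called higher, all of them Hspa1b, while 0.0511% of all probe sets were called higher. The probe set at the third rank, named after its value was seen, belongs to P2rx7, an ATP-gated ion channel, at 6.95 ± 0.72 (adjusted p = 0.0344).

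In rescue-labelled cells the 3 Hspa1b probe sets took the first 3 ranks. The changes were 6.95 ± 0.40 for 1427126_at, a 123-fold rise (adjusted p = 0.00679), 6.55 ± 0.41 for 1427127_x_at (adjusted p = 0.00679) and 5.60 ± 0.51 for 1452318_a_at (adjusted p = 0.0367). Again 3 of the 5 Hspa1 probe sets were called higher, against 0.0222% of all probe sets. Of the 8 probe sets called higher in both lines, 3 were Hspa1b.

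With the arrays taken as pairs, no Hspa1b change was called. Arrays with adjoining numbers (5 and 6, 11 and 12, 13 and 14, 31 and 32, 43 and 44) deviated together from their group means. A block for these pairs cannot alter the fitted change within a line, since each pair holds a preshocked and an unheated array. The adjusted p with the block was 0.0959, 0.0959 and 0.108 in KO-labelled cells and 0.261, 0.261 and 0.263 in rescue-labelled cells, in the order of probe sets above, with unadjusted p-values between 4.68e-06 and 1.33e-04. Standard errors with the block were 0.31, 0.25 and 0.33 in KO-labelled and 0.38, 0.30 and 0.40 in rescue-labelled cells. Each was lower than without the block. The rescue-labelled calls of all 3 probe sets also ended when any 1 of the 4 rescue-labelled arrays (31, 32, 43 or 44) was left out (adjusted p between 0.0576 and 0.286), and that of 1452318_a_at when KO-labelled array 5, 11, 13 or 14 was left out (adjusted p between 0.0943 and 0.132). In each of the 5 pairs, preshocked over unheated intensity was far above 1. For 1427126_at the ratio was 245, 214 and 467 in the KO-labelled pairs and 188 and 111 in the rescue-labelled pairs. For 1427127_x_at it ran between 140.3 and 311 in KO-labelled pairs and between 82.2 and 136 in rescue-labelled pairs, and for 1452318_a_at between 64.3 and 143 in KO-labelled pairs and between 53.1 and 55.6 in rescue-labelled pairs.

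**Figure D2:**
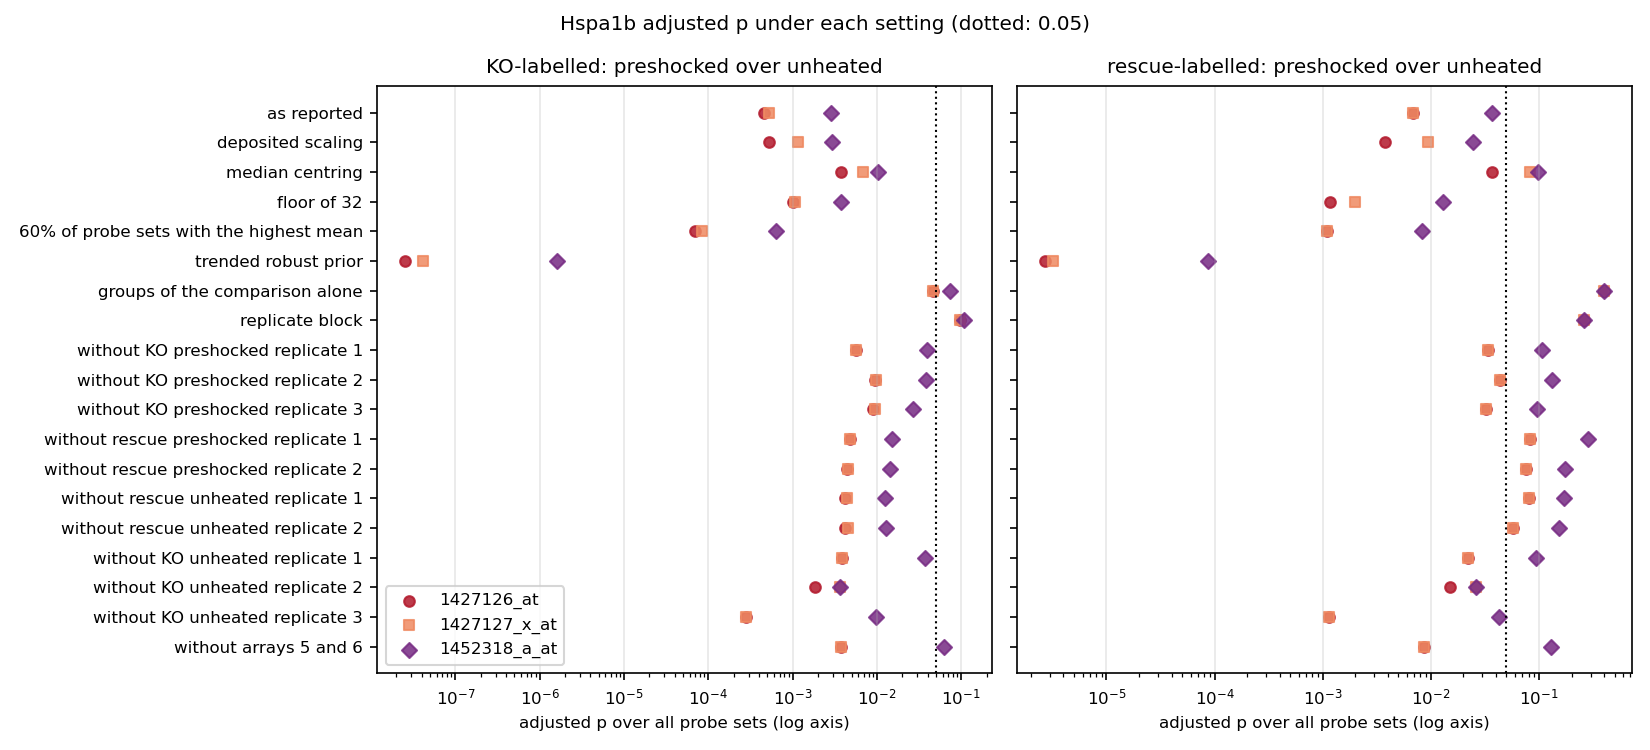
Adjusted p (log axis) of the preshock change of each Hspa1b probe set under each setting of the processing, with KO-labelled cells on the left and rescue-labelled cells on the right. The dotted line marks 0.05, and points to its right are not called. In KO-labelled cells the replicate block, at 0.0959 to 0.108, is the setting in which all 3 lie to the right, while rescue-labelled cells also cross it in other settings.

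**Figure D3:**
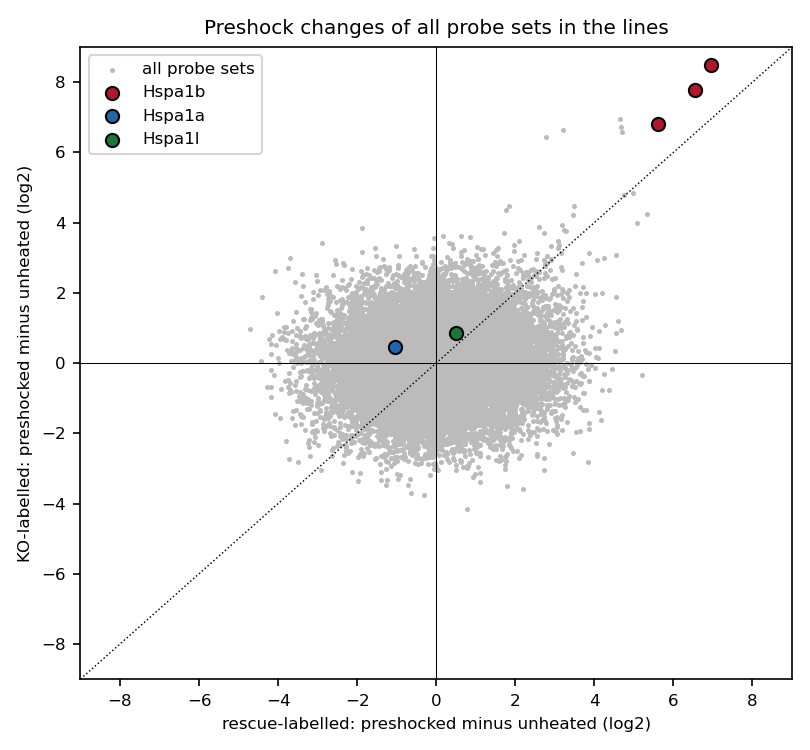
Preshock change of every probe set (log2, preshocked minus unheated) in rescue-labelled cells (horizontal) and in KO-labelled cells (vertical), with the 5 Hspa1 probe sets coloured and the dotted line marking equal change. The 3 Hspa1b probe sets lie at the upper right end, between 5.60 and 6.95 and between 6.81 and 8.48, and Hspa1a and Hspa1l lie within the cloud.

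Within the arrays the Hspa1b probe sets stood near the top of the scale after preshock. Over the 5 preshocked arrays they lay between percentiles 99.57 and 99.96 of the array's intensities, at 44.5% to 80.4% of the brightest probe set. In the 5 unheated arrays they lay between percentiles 40.6 and 80.4. The sources used here do not say whether any of these spots was saturated.

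Between the lines, mean Hspa1b intensities lay below those of rescue-labelled unheated arrays in KO-labelled unheated arrays, but no difference passed the test over all probe sets. The log2 difference between unheated lines was -1.82 for 1427126_at (95% interval -2.66 to -0.97, adjusted p = 0.241), -1.62 for 1427127_x_at (adjusted p = 0.317) and -1.07 for 1452318_a_at (interval -2.15 to 0.00, adjusted p = 0.630). For the first pair of these probe sets, every KO-labelled unheated array lay below every rescue-labelled unheated array. For 1452318_a_at 1 KO-labelled array, at 477, lay above the lower rescue-labelled array, at 465. How many of all probe sets separate the lines in this way was not counted, so the separation is only a description. In limma, 0 of the 5 Hspa1 probe sets were called between the unheated lines, 2 had an unadjusted p under 0.05, and 0.0266% of all probe sets were called. Those 2 belong to 1 gene, Hspa1b, and 3574 of all 45037 probe sets had an unadjusted p under 0.05.

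After preshock the deposited intensities of the lines overlapped for every Hspa1b probe set. On the normalized log2 scale of the fit they did not for 1427126_at, at 14.41 to 14.61 in KO-labelled against 14.77 to 14.82 in rescue-labelled preshocked arrays, nor for 1427127_x_at, at 14.43 to 14.79 against 14.95 to 15.00 in the same groups. They overlapped for 1452318_a_at on both scales. The share of all probe sets without overlap between the preshocked lines was not counted either. The log2 difference of KO-labelled over rescue-labelled preshocked cells was -0.28 (95% interval -1.13 to 0.56, adjusted p = 0.881) for 1427126_at and -0.38 (interval -1.25 to 0.48, adjusted p = 0.837) for 1427127_x_at. For 1452318_a_at it was 0.13 (interval -0.94 to 1.21, adjusted p = 0.964), and this value turned to -0.18 with the deposited scaling and -0.65 with median centring. Again 0 of the 5 probe sets were called by limma, 0 had an unadjusted p under 0.05, and 0.04% of all probe sets were called. An unadjusted p under 0.05 was found for 3517 of all 45037 probe sets. With the other scalings the median of all probe sets between the lines moved, by 0.21 and 0.20 with the deposited scaling and by -0.34 and -0.27 with median centring, in unheated and preshocked cells. Relative to that median, 1427126_at differed by -1.74 between unheated lines and by -0.72 between preshocked lines with the deposited scaling.

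The response itself, preshocked over unheated, differed by 1.53 on the log2 scale for 1427126_at, KO-labelled minus rescue-labelled (95% interval 0.34 to 2.73, adjusted p = 1.0). The difference was 1.24 for 1427127_x_at (interval 0.01 to 2.46) and 1.21 for 1452318_a_at (interval -0.31 to 2.73), and neither was called. In this comparison 0 of the 5 Hspa1 probe sets were called for a difference of responses in limma, 2 had an unadjusted p under 0.05, and 0.00666% of all probe sets were called. Both of the 2 are Hspa1b probe sets, and 1499 of all 45037 probe sets had an unadjusted p under 0.05. With the deposited scaling the differences were 1.01, 0.81 and 0.81. For 1427126_at the value of 1.53 is the preshocked difference between the lines (-0.28) minus the unheated difference (-1.82).

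**Figure D4:**
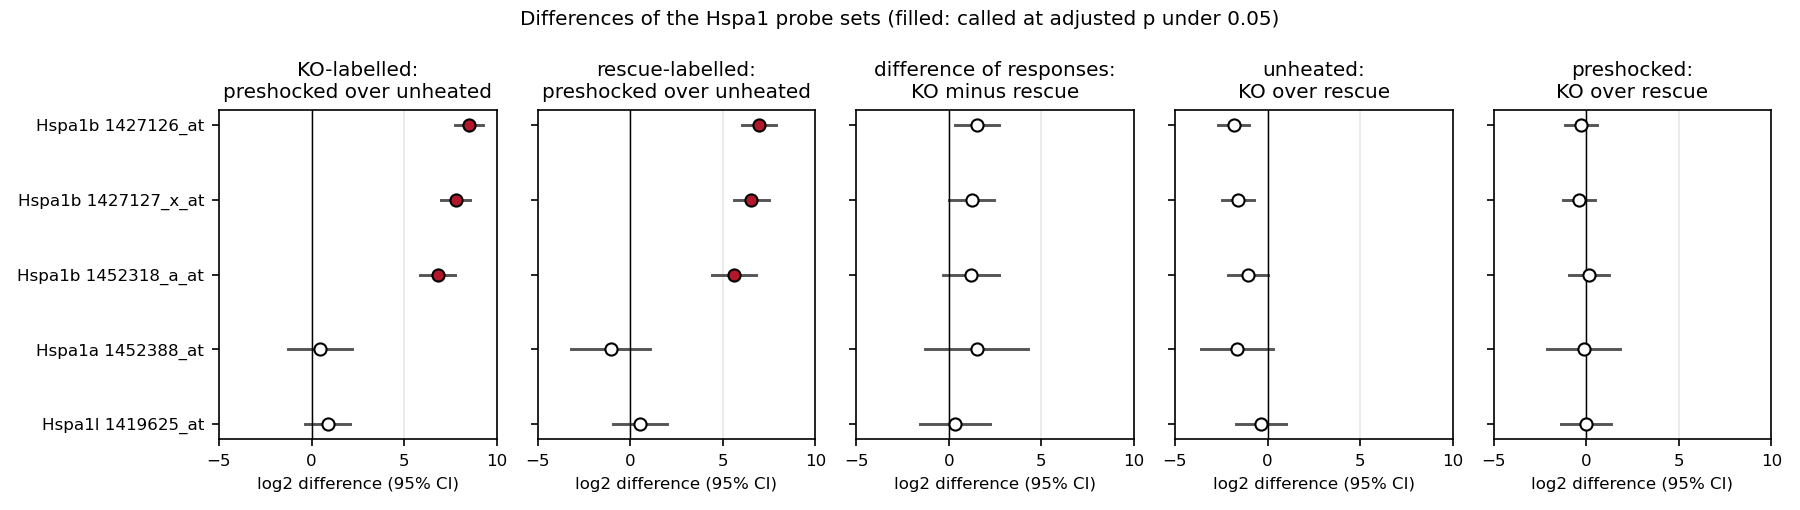
Log2 differences of the 5 Hspa1 probe sets in the 5 comparisons, with 95% intervals from the limma fit, KO-labelled over rescue-labelled in the panels between lines. Filled points are called at an adjusted p under 0.05. The 3 Hspa1b probe sets are filled in both preshock panels, at 5.60 to 8.48, and none is filled in the other panels.

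For each Hspa1b probe set the order of the groups by mean deposited intensity was rescue-labelled preshocked, KO-labelled preshocked, rescue-labelled unheated and KO-labelled unheated. The first pair of neighbours in that order overlapped in every probe set on that scale and in 1452318_a_at on the normalized scale, where the mean of its KO-labelled preshocked arrays, 14.81, was above that of its rescue-labelled preshocked arrays, 14.68. Rescue-labelled and KO-labelled unheated arrays did not overlap for 1427126_at and 1427127_x_at and did for 1452318_a_at. Preshocked and unheated arrays never overlapped. Separation of groups was not counted over all probe sets, so this order is a description of these arrays.

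Hspa1a, the gene next to Hspa1b with the near-identical promoter, gave a different picture on its single probe set. Probe set 1452388_at had intensities of 6.31, 22.1 and 8.47 in KO-labelled preshocked arrays, against 10.4, 16.9 and 3.49 in KO-labelled unheated arrays. Rescue-labelled arrays had 9.72 and 6.57 after preshock, against 10.2 and 25.8 without heat. These values lie low on the scale, between percentiles 7.55 and 35.7 within the arrays, and the groups overlapped except that both rescue-labelled preshocked arrays lay below both unheated ones. Such a separation was not counted over all probe sets. The log2 difference, preshocked over unheated, was 0.45 ± 0.75 in KO-labelled cells (95% interval -1.30 to 2.20, adjusted p = 1.0) and -1.05 ± 0.92 in rescue-labelled cells (interval -3.19 to 1.09, adjusted p = 1.0). Preshocked over unheated intensity was above 1 in 2 of the 5 pairs. With a floor of 32 all its values sat at the floor, so it had no order there.

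Hspa1a and Hspa1b transcripts are near-copies of each other, and the sources used here give no probe sequences. The Hspa1b probe sets may therefore also report Hspa1a transcripts, and the values cannot be split between the genes. They likewise do not place the probes relative to the deleted stretch, so these signals do not check the (-/-) label, and the rise in the KO-labelled arrays is stated for the arrays as labelled.

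Hspa1l, the sperm-cell Hsp70, showed small differences. Probe set 1419625_at had intensities of 182, 175 and 276 in KO-labelled preshocked arrays, against 90.7, 142 and 169 in KO-labelled unheated arrays. Rescue-labelled arrays had 201 and 157 after preshock, against 147 and 112 without heat. Every preshocked array had a higher deposited intensity than every unheated array of its line, but such a separation was not counted over all probe sets. On the normalized log2 scale the KO-labelled groups overlapped, with preshocked arrays 5 and 11 at 7.11 and 7.47 and unheated array 14 at 7.55. The preshocked over unheated ratio ran from 1.24 to 2.01 in the 5 pairs, above 1 in all 5. The share of all probe sets with a ratio above 1 in all 5 pairs was not counted either. The separation and the ratios are therefore only a description of these arrays. The log2 difference was 0.86 ± 0.51 in KO-labelled cells (95% interval -0.33 to 2.06, adjusted p = 0.907) and 0.51 ± 0.63 in rescue-labelled cells (interval -0.95 to 1.98, adjusted p = 1.0), so neither was called. With the pairs as a block the adjusted p was 0.304 and 0.604. Between lines it differed by -0.35 without heat (interval -1.69 to 0.98) and by -0.003 after preshock (interval -1.34 to 1.33), and the difference of responses was 0.35 (interval -1.54 to 2.24).

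None of the genes beside the locus was called in any of the 5 comparisons, among the 12 neighbours measured within about 103 kb of Hspa1b (middle to middle). Calls were rare over all genes, so this count says little about 12 genes. Called higher were 0.0495% of all genes in KO-labelled and 0.022% in rescue-labelled cells, and called lower 0.011% and 0.0055%. Between the lines 0.033% were called in unheated and 0.033% in preshocked cells, and 0.0055% for the difference of responses. The median log2 difference of the neighbours, preshocked over unheated, was -0.15 in KO-labelled and -0.17 in rescue-labelled cells, against -0.04 and -0.03 over all genes. The nearest on the lower-coordinate side, Neu1, a lysosomal sialidase 23.6 kb away, stood at -0.85 ± 0.26 in KO-labelled cells (adjusted p = 0.532) and at -0.59 ± 0.32 in rescue-labelled cells (adjusted p = 1.0). On the other side Lsm2, a splicing-related RNA-binding protein 26 kb away, stood at -0.13 in KO-labelled and -0.11 in rescue-labelled cells. In the same 2 lines Vars, a transfer RNA synthetase, stood at 0.02 and -0.18, Clic1, a chloride channel protein, at 0.07 and -0.03, and Ehmt2, a histone methyltransferase, at -0.18 and -0.15. Ddah2 stood at -0.04 and 0.20, Slc44a4, a choline transporter-like protein, at -0.95 and 0.85, and Msh5, a meiotic recombination protein, at -0.27 and -0.31. Sapcd1 stood at 1.43 and -1.17, Vwa7 at 0.68 and -1.05, and the complement genes C2 at -0.50 and -0.35 and Cfb at -0.64 and 0.99, with wide intervals in the plot of the locus. The lowest adjusted p of a neighbour was 0.532 in KO-labelled and 1.0 in rescue-labelled cells, and in limma 1 and 0 of the 12 had an unadjusted p under 0.05. Between the unheated lines, 0 of 12 had an unadjusted p under 0.05, and between the preshocked lines 1 of 12. Over all 45037 probe sets, 2985 had such a p in KO-labelled and 2557 in rescue-labelled cells. Between the unheated lines 3574 did, and between the preshocked lines 3517.

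**Figure D5:**
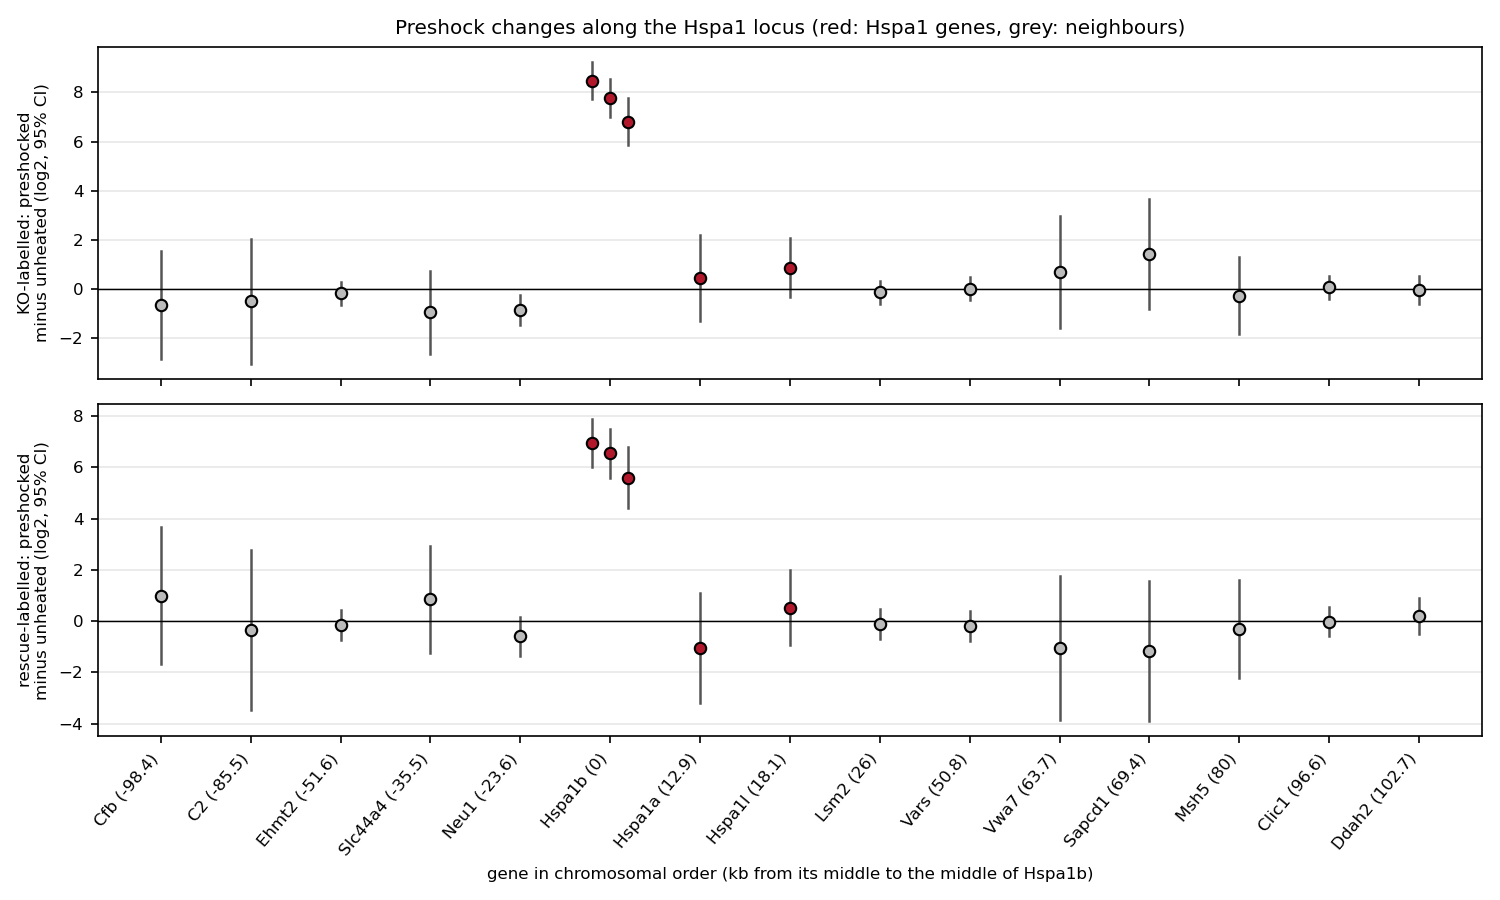
Preshock change (log2, preshocked minus unheated, 95% interval) of the 3 Hspa1 genes (red, 1 point per probe set) and of 12 neighbours (grey, 1 probe set each) in chromosomal order, KO-labelled cells above and rescue-labelled cells below. The Hspa1b points lie between 5.60 and 8.48, and the intervals of all other genes except Neu1 in KO-labelled cells cross 0.

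Among the other heat shock genes, with the brightest probe set of each, the highest log2 difference was that of Dnaja4, an Hsp40, at 4.22 ± 0.60 in KO-labelled cells (adjusted p = 0.0868) and 3.45 ± 0.73 in rescue-labelled cells (adjusted p = 0.349). Another Dnaja4 probe set, 1434196_at, stood at 6.64 ± 0.81 in KO-labelled cells (adjusted p = 0.0611), close to Hspa1b probe set 1452318_a_at at 6.81. Dnaja4 was picked after its values were seen. A list of 25 heat shock genes was taken as HSF1 targets from textbook knowledge. Among the 22 measured, 3 were called higher in KO-labelled cells, against 0.0495% of 18193 genes called higher and 0.011% called lower. These were Dnajb1, the Hsp40 partner that loads clients onto Hsp70 (2.64 ± 0.21, adjusted p = 0.0112), Zfand2a, a proteasome-associated zinc finger protein (2.34 ± 0.21, adjusted p = 0.0175), and Dnajb4, another Hsp40 (2.06 ± 0.20, adjusted p = 0.0291). In rescue-labelled cells 1 was called higher, Dnajb1 (2.87 ± 0.26, adjusted p = 0.0367), against 0.022% of genes called higher and 0.0055% called lower. The list was chosen with earlier results of these data known, so its values are a description and no independent support. All 22 values lay above 0 in each line, with medians of 0.48 and 0.52 against -0.04 and -0.03 for all genes. With the pairs as a block 0 of the 22 were called. In KO-labelled cells 0 were called without array 5, 11, 12 or 13 and 1 without array 14, 31 or 43, and the rescue-labelled call ended without any 1 of the 10 arrays. Dnajb4 (2.44, adjusted p = 0.0557) and Zfand2a (2.35, adjusted p = 0.0767) were not called in rescue-labelled cells, nor Dedd2, a death-effector-domain protein, in KO-labelled cells (2.40, adjusted p = 0.0589).

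No other Hsp70 or Hsp110 relative passed the test on its brightest probe set. Calls were rare over all genes, so counts of 0 in the short lists named here say little. Called higher were 0.0495% of all genes in KO-labelled and 0.022% in rescue-labelled cells, and called lower 0.011% and 0.0055%. In these lines 2985 and 2557 of 45037 probe sets had an unadjusted p under 0.05. Among 12 relatives measured, 0 were called by limma in either line, and 1 in each had an unadjusted p under 0.05. That was Hsph1, an Hsp110 that exchanges the nucleotide of Hsp70, at a log2 difference of 1.90 ± 0.24 in KO-labelled cells (adjusted p = 0.0701) and of 2.09 ± 0.30 in rescue-labelled cells (adjusted p = 0.155) on its brightest probe set. Hspa2, a testis-enriched Hsp70, stood at 0.34 in KO-labelled and 0.03 in rescue-labelled cells, and the Hsp110 genes Hspa4l at 0.21 and 0.34 and Hspa4 at 0.02 and -0.11. Hspa8, the constitutive cytosolic Hsp70, which was picked after its values were seen, stood at 0.13 and 0.17. The medians of the 12 were 0.12 and 0.005. Between the lines 0.033% of genes were called in unheated and 0.033% in preshocked cells, and 0.0055% for the difference of responses, with 0 of the 12 relatives and 0 of the 22 heat shock genes among them. Of 13 nucleotide exchange factors and partners, 0 were called by limma in either line, and 2 in KO-labelled and 1 in rescue-labelled cells had an unadjusted p under 0.05. Bag3, an exchange factor that links Hsp70 to autophagy, stood at 1.68 in KO-labelled cells (adjusted p = 0.0736) and at 1.67 in rescue-labelled cells (adjusted p = 0.207). Bag4 stood at -0.68 and -0.40 in these lines. In the same order the Hsp70 and Hsp90 adaptor Stip1 stood at 0.34 and 0.25 and the Hsp70-binding cochaperone St13 at 0.23 and 0.36. Bag1 stood at 0.11 in KO-labelled and 0.02 in rescue-labelled cells, and Bag2 at -0.02 and 0.09. These 2 genes are named through tied adjusted p-values in rescue-labelled cells, not through the size of their differences. Of 3 measured HSF regulators 0 were called, with the heat shock factors Hsf2 at 0.45 and 0.72 and Hsf4 at -1.39 and 0.76, and the HSF-binding protein Hsbp1 at 0.07 and 0.02, in KO-labelled and rescue-labelled cells.

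Across the 10 arrays, Hspa1b probe set 1452318_a_at, the brightest on average, varied with the other Hspa1b probe sets (Pearson r = 0.995 and 0.993), and its r with Hspa1l was 0.61 and with Hspa1a 0.02. These arrays form preshocked and unheated clusters, and r is given only as a description of the values. Outside the locus the 10 genes with the highest r were Ccdc117 (0.991), Swt1 (0.988), Hsph1 (0.983), Tmem41b (0.983), Numb (0.982), Rnf225 (0.982), Klf6 (0.981), Slc30a1 (0.979), Fosb (0.978) and Dnajb1 (0.978). Swt1 stood at 2.66 ± 0.23 in KO-labelled cells (adjusted p = 0.0151) and at 2.11 ± 0.28 in rescue-labelled cells (adjusted p = 0.147), and the zinc exporter Slc30a1 at 1.29 and 1.45, neither called. Hsph1 stands in this list through a different probe set, 1423566_a_at, at 2.41 ± 0.26 (adjusted p = 0.0346) in KO-labelled and 2.38 ± 0.31 (adjusted p = 0.137) in rescue-labelled cells.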

How the data were processed

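Expression was measured on 10 Affymetrix mouse arrays. The authors deposited 1 intensity per probe set and array, on a linear scale; the sources used here do not name the summarisation software, and the trimmed mean (2% at each end) is 500 in every array. Per the labels, the biotin labelling started from 1.5 µg of total RNA.

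Values below 1 (4935) were set to 1, log2 was taken and, because array medians differed by 1.08, values were quantile normalized. The 64 control probe sets were left out. limma 3.58.1 (R 4.3.3, statmod 1.5.0) fitted a mean for each of 4 groups over 45037 probe sets in 5 comparisons, with Benjamini-Hochberg adjustment and a call at 0.05; the code was tested on simulated data. In the annotation 34945 probe sets have 1 symbol, 932 several and 9160 none, and a listed gene is represented by its probe set with the highest mean. Of the heat shock list 22 of 25 genes had such a probe set, and of the HSF regulators Hsf1 had none. Promoter sequences are RefSeq's (GRCm38.p6), matched by symbol for all 3 Hspa1 genes.

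Pairing follows the adjoining array numbers in the labels: deviations of paired arrays from their group means correlated at 0.721, 0.376 and 0.552 in KO-labelled pairs and at 0.370 in rescue-labelled pairs, which mirror each other with 2 arrays a group and give 1 value, over 10916 genes. The block was fixed within a line and random between lines (consensus correlation 0.486). The members and lists were chosen with earlier results of these data known. Named genes are all Hspa1 probe sets, the 10 likest genes, every neighbour, and up to 4 genes per list with the smallest adjusted p in a preshock comparison. Where adjusted p-values tied, the named genes follow the order of the list. Alternatives were 2 other scalings, a floor of 32, the 60% brightest probe sets, a trended robust prior, fits on the groups compared alone, the replicate block, and leaving out each array or arrays 5 and 6.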

Additional observations from a re-analysis of the deposited data

How the results depend on the processing

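Each Hspa1b rise kept its direction in all 18 alternatives, with log2 changes of 8.18 to 8.80, 7.52 to 8.03 and 6.54 to 7.26 in KO-labelled cells and 6.78 to 7.19, 6.44 to 6.75 and 5.29 to 5.90 in rescue-labelled cells, in the order 1427126_at, 1427127_x_at, 1452318_a_at. Of the 3 Hspa1 probe sets called in KO-labelled cells, 0 were called with the replicate block, which leaves 3 residual degrees of freedom, and 2 with the groups compared alone or without arrays 5 and 6. Of the 3 called in rescue-labelled cells, 1 was called with median centring, 0 with the groups compared alone and 0 with the replicate block, and 0 to 3 when 1 array was left out. Without arrays 5 and 6, 2 of the 3 were called in rescue-labelled cells. The cause of the lost calls was not tested. No Hspa1 probe set was called in the other 3 comparisons under any alternative. Calls over all probe sets in KO-labelled cells numbered 27, against 18 with the deposited scaling, 12 with median centring, 172 with the floor of 32, 131 with the 60% brightest, 173 with the trended prior, 2 with the groups alone, 0 with the block and 5 to 31 with 1 array left out. In rescue-labelled cells they numbered 11, against 8, 3, 149, 23, 58, 0, 0 and 0 to 6 in the same order. Genes of the heat shock list that were called ran from 0 to 10 in KO-labelled and 0 to 7 in rescue-labelled cells. The number of arrays and the missing background measure limit low probe sets such as that of Hspa1a.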

Other observations

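Beside the 3 Hspa1b probe sets, the 8 called higher in both lines were made up of 2 probe sets each of Dnajb1 and Cpn1 and 1 of Atf3, named here after their values were seen. Cpn1, a plasma carboxypeptidase subunit, changed by 4.78 and 6.58 in KO-labelled cells and by 4.74 and 4.69 in rescue-labelled cells on its probe sets 1417745_at and 1440576_at. Atf3, a stress-induced transcription factor, changed by 4.84 in KO-labelled cells and by 4.98 in rescue-labelled cells.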
